A study of Mus musculus with 6 samples.

Results

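Transfer RNA carries more chemical modifications than any other RNA, and dedicated enzymes place each one at a defined position of the molecule. Modifications of the wobble base, the anticodon base that pairs with the last base of the codon, tune how codons are read, those beside the anticodon keep the reading frame, and those in the body of the molecule help it to fold and last. In testis, the cytosine methyltransferase Nsun2 is known to be needed for germ cells to pass through meiosis. The set described here is 40 genes for enzymes and cofactors of transfer RNA modification, chosen by function with earlier results of these data known. It leaves out the subunits of Elongator, the complex that starts carboxymethylation of the wobble uridine. Of the 40 genes 38 had a row of their own in the expression table, out of 19938 named genes in all. Adat3 had none, and Alkbh1 only shares a row with another gene symbol, so neither was analysed here.

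The arrays came from whole testes of mouse pups at postnatal day 15, when the first wave of germ cells has entered meiosis. The 2 groups were control and knockout, 3 arrays each, on Affymetrix Mouse Gene arrays. The labels state neither strain nor the cells in which the gene was deleted, nor whether each array is 1 animal. The spread between the 3 samples of a group may therefore be technical. In whole testis, fewer cells of a type and less RNA per cell cannot be told apart. Values are log2 intensities per transcript cluster, the set of probes that reads 1 transcribed region, and every difference given is log2 knockout minus log2 control. Every difference was taken from 1 limma fit over 21789 clusters with 1 gene symbol, with Benjamini-Hochberg adjustment over all of them and a threshold of 0.05. That fit draws the spread of each cluster toward the spread typical of all clusters, with 3.24 degrees of freedom from all clusters beside 4 from the arrays. Each SE, interval and p-value rests on both spreads.

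Marker genes of testis cells were set beside the label. Levels of different probes cannot be ranked against each other, so the label was not settled by level. The 14 pachytene spermatocyte markers averaged 9.12 to 9.83 per array, the 9 measured Sertoli cell markers 11.5 to 11.6, 3 liver genes 6.46 to 6.69 and 3 brain genes 7.003 to 7.11. Of the pachytene markers 13 of 14 were lower in the knockout, with a median difference of -0.42. Their differences were uneven, from -0.86 for Crisp2 to 0.010 for Meiob, and 5 of the 14 (Sycp3, Hormad1, Sycp1, Pgk2 and Meiob) differed by at most 0.1. The summed linear intensity of all 14 ran from 17503 to 21959 in control and from 15772 to 18147 in knockout arrays. Control replicate 1 (mean log2 level 9.31) lay among the knockout arrays (9.12 to 9.40) for these markers. Spermatogonial markers were lower in 6 of 7, with a median of -0.083, the other being Gfra1 (0.39). Somatic markers differed by cell type. Higher were 4 of 4 measured Leydig cell markers (median 0.38), 8 of 9 Sertoli cell markers (0.073) and 7 of 8 macrophage markers (0.14). The 1 measured erythrocyte marker, Alas2, was also higher (0.28). Among the Leydig cell markers the groups overlapped in 3 of 4, and single arrays weighed on Cyp17a1 and Star. Cyp17a1 read 11.27, 11.06 and 9.93 in control and 11.06, 10.98 and 11.40 in knockout arrays. Star read 9.92, 9.83 and 9.41 in control and 9.88, 9.84 and 10.79 in knockout arrays. Of 4 peritubular myoid cell markers 3 were lower and 1 higher, with a median of -0.017. No marker named here passed the threshold, and their part in the differences of the enzymes was not tested.

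None of the 38 enzymes passed the threshold. Of all clusters 0.0138% passed (3 of 21789), and 0 enzymes were called higher, where 0.00918% of clusters were, and 0 lower, where 0.00459% were. The differences ran from -0.17 for Dus1l to 0.14 for Adat2, and 33 of 38 enzymes differed by at most 0.1. At an unadjusted p under 0.05 in limma, 3 enzymes (7.89%) stood out, 2 lower and 1 higher, against 10.6% of all clusters (6.45% lower and 4.1% higher). The values of the groups did not overlap in 6 enzymes (15.8%), against 15.3% of all clusters. These were Dus1l and Nfs1 on the lower side, where 8.6% of all clusters were separate, and Ctu1, Adat1, Cdkal1 and Pus3 on the higher side, where 6.73% were. The share of separate enzymes was near the background and is no result about the set.

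The direction over the set was not uniform. The knockout mean exceeded that of the control in 16 of the 38 enzymes and fell short of it in 22. Their median difference was -0.027, beside a median of 0.0033 over all clusters. The median size of the difference, without its sign, was 0.042 for the enzymes and 0.053 for all clusters. Centring each array on its own median brought the enzymes' median to -0.0067, the same value as without control replicate 1, and without knockout replicate 3 it was -0.0017. Centring added the same constant to the difference of every cluster, so the enzymes kept their place relative to all clusters. The share of all clusters lower in the knockout was 46.96%, and 36.7% with centred arrays.

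The errors of these differences were narrow on the scale of a 1.2-fold change, but wider than most of the differences themselves. The 95% interval of a difference reached 0.12 to either side for the median enzyme, from 0.090 for the most precise to 0.30 for Adat2. In 8 of 38 enzymes the interval lay within a 1.1-fold change either way, in 36 within 1.2-fold and in all 38 within 1.5-fold. Dus1l and Adat2 were the enzymes whose intervals reached past 1.2-fold. The spread within groups was a little smaller than that of all clusters, with a median residual SD of 0.057 against 0.070. All 38 enzymes had a mean above the dimmest 25% of clusters, so a filter on low values removed none.

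**Figure D1:**
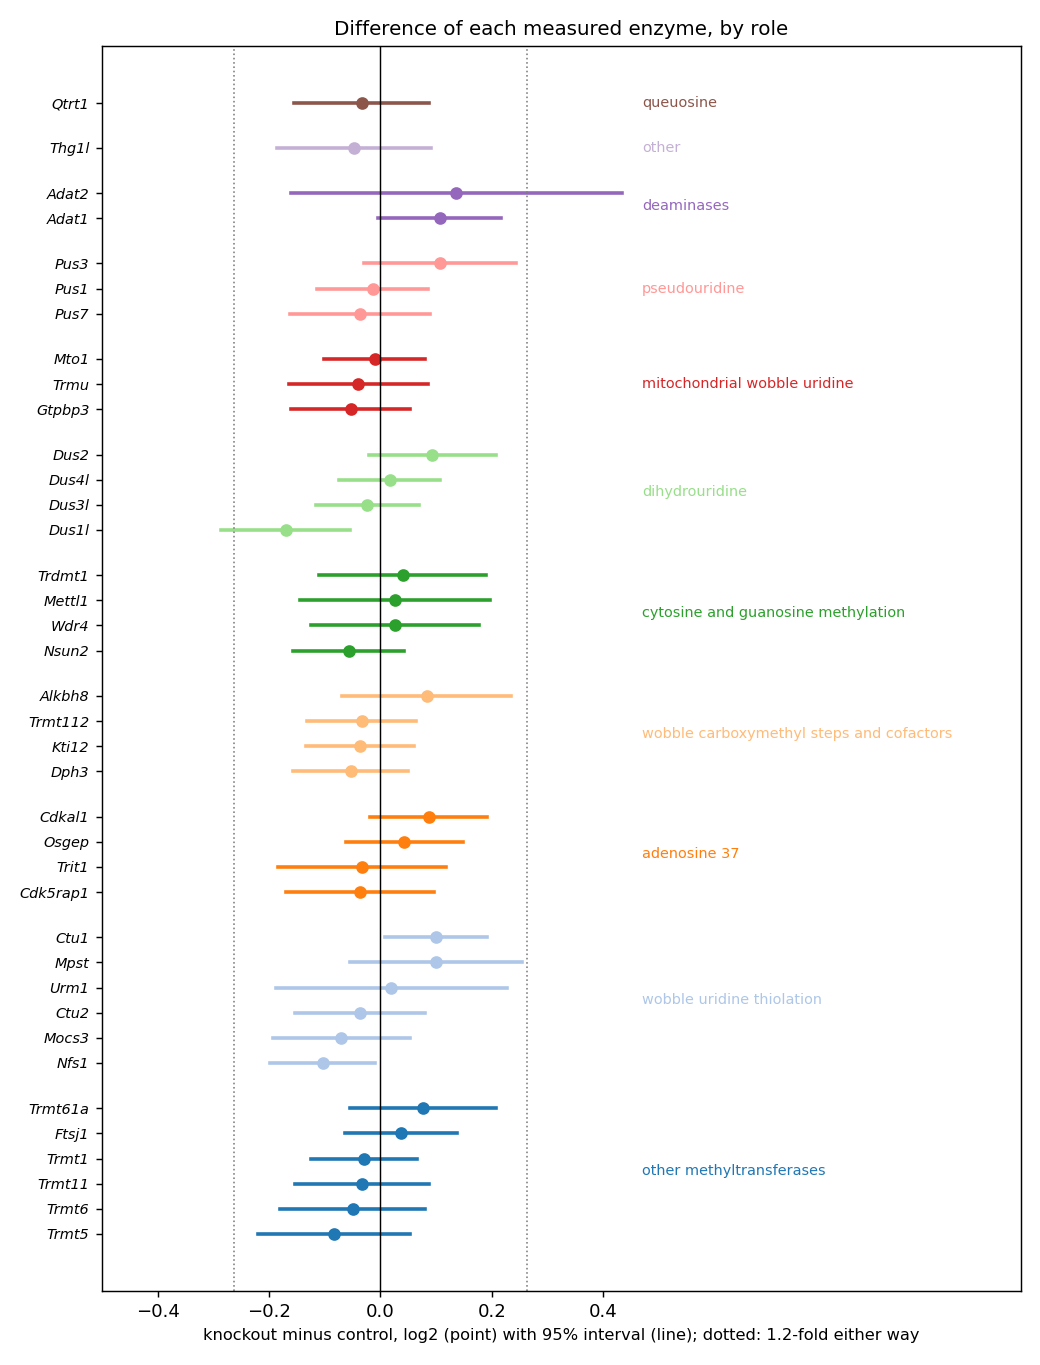
Difference between knockout and control for each of the 38 measured enzymes, arranged by role. Points are log2 differences, lines 95% intervals from limma and dotted lines 1.2-fold either way. The intervals of Dus1l, Nfs1 and Ctu1 exclude 0, and that of Adat2 is the widest.

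The sequences in front of the 3 enzymes with the smallest p-values are shown because these genes carry the clearest, though uncalled, differences of the set. They are the 250 bases before the annotated start from RefSeq (build GRCm38.p6), 5′ to 3′ on the strand of the gene. Dus1l lies at chr11:120796396-120796645 on the minus strand, Nfs1 at chr2:156144187-156144436 on the minus strand and Ctu1 at chr7:43671781-43672030 on the plus strand, each pair of coordinates being the window printed. Capitals mark matches to the motif letters searched.
Dus1l: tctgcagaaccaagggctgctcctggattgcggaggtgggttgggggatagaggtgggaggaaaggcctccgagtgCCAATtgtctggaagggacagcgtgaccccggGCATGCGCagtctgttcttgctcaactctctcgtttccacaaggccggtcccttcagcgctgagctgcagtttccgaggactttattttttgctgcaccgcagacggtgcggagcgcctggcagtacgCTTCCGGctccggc
Nfs1: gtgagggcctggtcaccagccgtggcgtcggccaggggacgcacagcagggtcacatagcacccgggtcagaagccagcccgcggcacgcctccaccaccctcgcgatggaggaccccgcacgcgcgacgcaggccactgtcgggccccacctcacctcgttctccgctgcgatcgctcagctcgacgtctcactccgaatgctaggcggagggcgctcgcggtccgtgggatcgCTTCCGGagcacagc
Ctu1: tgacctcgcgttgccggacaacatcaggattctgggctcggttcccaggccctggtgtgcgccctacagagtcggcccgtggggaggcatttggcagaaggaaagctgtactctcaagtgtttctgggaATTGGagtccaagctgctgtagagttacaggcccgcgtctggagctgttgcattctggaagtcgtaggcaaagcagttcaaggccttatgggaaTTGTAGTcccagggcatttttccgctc

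The capitals in Dus1l and Nfs1 near the start are CTTCCGG, the reverse complement of CCGGAAG, the core letters bound by ETS factors. Dus1l also holds GCATGCGC, part of the palindrome of the respiratory factor NRF1, and CCAAT, the box bound by NF-Y. Ctu1 holds TTGTAGT, the reverse complement of ACTACAA, part of the long motif of the zinc-finger factor ZNF143, and ATTGG, the reverse complement of CCAAT. A match is a string of letters and not a measured binding site.

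Windows were found for 35 of the 38 enzymes (41 windows, since some genes have several starts). The enzyme windows held a median of 15 CpG dinucleotides, with a range of 2 to 37, against 6 over all 32851 windows, and the median GC content was 56.4% against 52.4%. Nfs1 was CpG-rich with 30, Dus1l had 16 and Ctu1 11. Searched on both strands, CCGGAAG was present in 9 of 41 enzyme windows (21.95%) and 6.91% of all windows. Its other carriers were Dph3, Kti12, Mocs3, Osgep, Thg1l, Trmt5 and Urm1. Of the 9 carriers 7 were lower in the knockout and 2 higher (Osgep and Urm1), none past the threshold, beside 22 lower of all 38 enzymes. The SP1 letters GGGCGG were in 29.3% of enzyme windows and 32.7% of all, CCAAT in 34.1% and 33.8%, and the TATA box TATAAA in 9.76% and 12.4%. TGACGTCA, the palindrome of the CREB family, was in 7.32% of enzyme windows and 1.55% of all, in Dus2, Trmt5 and Trmt61a. GCATGCGC (2.44% and 2.26%) and ACTACAA (2.44% and 2.81%) each had 1 enzyme window. All windows include those of genes that make no protein, so these shares describe the windows and were not tested.

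Thiolation replaces an oxygen of the wobble uridine with sulfur, and 6 of its genes were measured. Of these, 3 were higher and 3 lower in the knockout, and their median was -0.0083. Nfs1, the cysteine desulfurase that releases the sulfur, read 10.26, 10.22 and 10.25 in control replicates 1 to 3 and 10.17, 10.11 and 10.14 in knockout replicates 1 to 3. All knockout arrays lay below all control arrays. Its difference was -0.10 (SE 0.040, fold 0.931, 95% interval 0.872 to 0.994) and did not pass (adjusted p = 0.430).

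Ctu1, the catalytic subunit that puts the sulfur on the wobble uridine, read 7.77, 7.75 and 7.76 in control and 7.85, 7.89 and 7.84 in knockout arrays. Every knockout value lay above every control value, and the control values lay within 0.02 of each other. The difference was 0.10 (SE 0.039, 1.07-fold, 95% interval 1.01 to 1.14, adjusted p = 0.430). Ctu2, the partner of Ctu1 in the same complex, differed by -0.037 (SE 0.050, adjusted p = 0.843) with overlapping groups.

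Sulfur reaches Ctu1 through a relay. Mocs3, which activates the carrier protein and passes sulfur to it, read 8.01, 8.08 and 7.97 in control and 7.96, 7.88 and 8.01 in knockout arrays, and its groups overlapped. Its difference was -0.070 (SE 0.052, adjusted p = 0.690). Mpst, a mercaptopyruvate sulfurtransferase that can feed sulfur into the relay, read 8.33, 8.12 and 8.34 in control and 8.37, 8.39 and 8.33 in knockout arrays. Here 1 low array, control replicate 2, set most of the difference of 0.10 (SE 0.066, adjusted p = 0.648), which was 0.028 without that array. Urm1, the ubiquitin-like carrier itself, showed the same low value in control replicate 2 (9.17, beside 9.50 and 9.46 in the other control arrays). Urm1 differed by 0.020 with all arrays (SE 0.088) and by -0.083 without that one.

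The carboxymethyl group of the wobble uridine is started by Elongator and finished by other proteins. Alkbh8, which methylates and can hydroxylate that group, read 9.59, 9.37 and 9.54 in control and 9.53, 9.61 and 9.61 in knockout arrays. Its groups overlapped, with control replicate 2 lowest again, and the difference of 0.083 (SE 0.065, adjusted p = 0.702) was 0.018 without that array. Dph3, an electron donor for Elongator and for diphthamide synthesis, read 10.13, 10.21 and 10.11 in control and 10.10, 10.11 and 10.08 in knockout arrays. It differed by -0.053 (SE 0.044, adjusted p = 0.716), and its groups overlapped at 10.11. Kti12, a factor that works with Elongator, differed by -0.037 (SE 0.041).

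Trmt112, an activating partner of several methyltransferases including Alkbh8, had 3 rows. The row with the highest mean differed by -0.033 (SE 0.042), another by -0.027 and the dimmest by 0.047. Rows of 1 gene at such different levels can read near-identical copies elsewhere in the genome, so the value of Trmt112 is uncertain. None of its rows passed (adjusted p = 0.829 to 0.869). The same limit holds for Pus7, whose rows had control means of 9.82, 8.40 and 8.05, and for Osgep, with 10.53 and 10.19.

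Of the Elongator subunits, Elp2 to Elp6 were measured, 5 genes with differences of -0.073 to 0.063 and a median of -0.017. None passed (smallest adjusted p = 0.580). The groups were separate in Elp5 (-0.073) and in Elp4 (0.063) and overlapped in the others, where 15.3% of all clusters were separate. With centred arrays, where the same constant is added to every cluster, the median was 0.0033.

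Mitochondria modify their own wobble uridines with a separate set of enzymes. All 3 genes lay slightly below the control mean and none passed. Gtpbp3, a GTPase that adds a taurine group with Mto1, read 8.63, 8.54 and 8.56 in control and 8.53, 8.48 and 8.56 in knockout arrays, with overlapping groups. It differed by -0.053 (SE 0.045, adjusted p = 0.727). Trmu, the enzyme for thiolation of the mitochondrial wobble uridine, differed by -0.040 (SE 0.053). Mto1 differed by -0.010 (SE 0.038), which became 0.010 when arrays were centred on their medians.

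Methyltransferases were the largest class, 10 genes in all. Among those for cytosine and guanosine, Nsun2, which methylates cytosines of many transfer RNAs, read 9.84, 9.75 and 9.79 in control and 9.72, 9.76 and 9.73 in knockout arrays. It differed by -0.057 (SE 0.043, adjusted p = 0.693), with knockout replicate 2 inside the control range. Trdmt1, a cytosine methyltransferase related to the DNA methyltransferases, differed by 0.040 (SE 0.064). Mettl1, which methylates a guanosine, and its non-catalytic partner Wdr4 each differed by 0.027 (SE 0.073 and 0.064). The signs of Trdmt1, Mettl1 and Wdr4 each turned when 1 array was left out.

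Of the other 6 methyltransferase genes 2 were higher and 4 lower in the knockout, and the median was -0.032. Trmt5, which methylates the guanosine next to the anticodon, read 9.75, 9.67 and 9.68 in control and 9.53, 9.72 and 9.60 in knockout arrays. Knockout replicate 2 lay inside the control range, and the difference of -0.083 (SE 0.058, adjusted p = 0.667) was within the spread. Trmt61a, the catalytic subunit of an adenosine methyltransferase, read 8.87, 8.80 and 8.79 in control and 8.92, 8.97 and 8.80 in knockout arrays. It differed by 0.077 (SE 0.056, adjusted p = 0.681), with knockout replicate 3 at the control level, while its partner Trmt6 differed by -0.050 (SE 0.055). The X-linked Ftsj1, which methylates riboses of the anticodon loop, differed by 0.037, the guanosine methyltransferase Trmt11 by -0.033 and the guanosine dimethylase Trmt1 by -0.030.

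Bulky groups on the adenosine beside the anticodon keep codon and anticodon aligned. Cdkal1, which adds a methylthio group to that adenosine in a lysine transfer RNA, read 10.29, 10.35 and 10.34 in control and 10.47, 10.38 and 10.39 in knockout arrays. The groups did not overlap, with a gap of 0.03 between the highest control and the lowest knockout array. The difference was 0.087 (SE 0.045, 1.06-fold, adjusted p = 0.543). Its mitochondrial relative Cdk5rap1 differed by -0.037 (SE 0.057), and Trit1, which makes the isopentenyl adenosine that Cdk5rap1 acts on, by -0.033 (SE 0.064). Osgep, the catalytic subunit of the complex that adds threonylcarbamoyl groups, differed by 0.043 (SE 0.045), and its second row by 0.033.

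Dihydrouridine, made by the DUS reductases, loosens the fold of the molecule. Dus1l read 9.36, 9.43 and 9.51 in control and 9.27, 9.27 and 9.25 in knockout arrays. The groups did not overlap. The knockout arrays were close together (9.26 ± 0.012, SD, n = 3) while the control arrays were spread (9.43 ± 0.075), with control replicate 1 nearest to the knockout. The difference of -0.17 (SE 0.049, fold 0.889, 95% interval 0.820 to 0.963) had the smallest p of the set and did not pass (adjusted p = 0.359). It was -0.21 without control replicate 1 and -0.13 without control replicate 3, and the adjusted p ranged from 0.205 to 0.674 over all settings tried.

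The other reductases had smaller differences on both sides of 0. Dus2 read 8.85, 8.81 and 8.88 in control and 8.95, 9.0 and 8.87 in knockout arrays, a difference of 0.093 (SE 0.049, adjusted p = 0.547) with knockout replicate 3 inside the control range. Dus3l differed by -0.023 (SE 0.040) and Dus4l by 0.017 (SE 0.039), and both had narrow values, Dus4l within 0.05 over the 6 arrays.

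Deaminases turn adenosine into inosine. Adat1, which acts beside the anticodon of alanine transfer RNA, read 8.84, 8.80 and 8.74 in control and 8.91, 8.94 and 8.85 in knockout arrays. The groups were separate by 0.01, and the difference of 0.11 (SE 0.047, 1.08-fold) did not pass (adjusted p = 0.483). Adat2, which makes the wobble inosine together with Adat3, was the most variable enzyme, reading 9.09, 8.96 and 9.45 in control and 9.27, 9.20 and 9.44 in knockout arrays. Its highest value in either group came from replicate 3, and its difference of 0.14 (SE 0.13, adjusted p = 0.750) was smaller than its range of 0.49. It was 0.033 without control replicate 2, 0.068 without knockout replicate 3 and 0.28 without control replicate 3.

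Pseudouridine is made by the PUS enzymes, which turn the uracil base around. Pus3, which acts at the edge of the anticodon loop, read 8.76, 8.59 and 8.77 in control and 8.81, 8.84 and 8.79 in knockout arrays. The groups were separate by 0.02, and without the low control replicate 2 the difference of 0.11 (SE 0.058, adjusted p = 0.558) was 0.048. Pus1 differed by -0.013 (SE 0.042), which turned to 0.0067 after centring, and Pus7 by -0.037 (SE 0.053), whose dimmest row differed by 0.037. Qtrt1, which exchanges the wobble guanine for queuine, differed by -0.033 (SE 0.052), and Thg1l, which adds a guanosine to the front end of histidine transfer RNA, by -0.047 (SE 0.059).

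**Figure D2:**
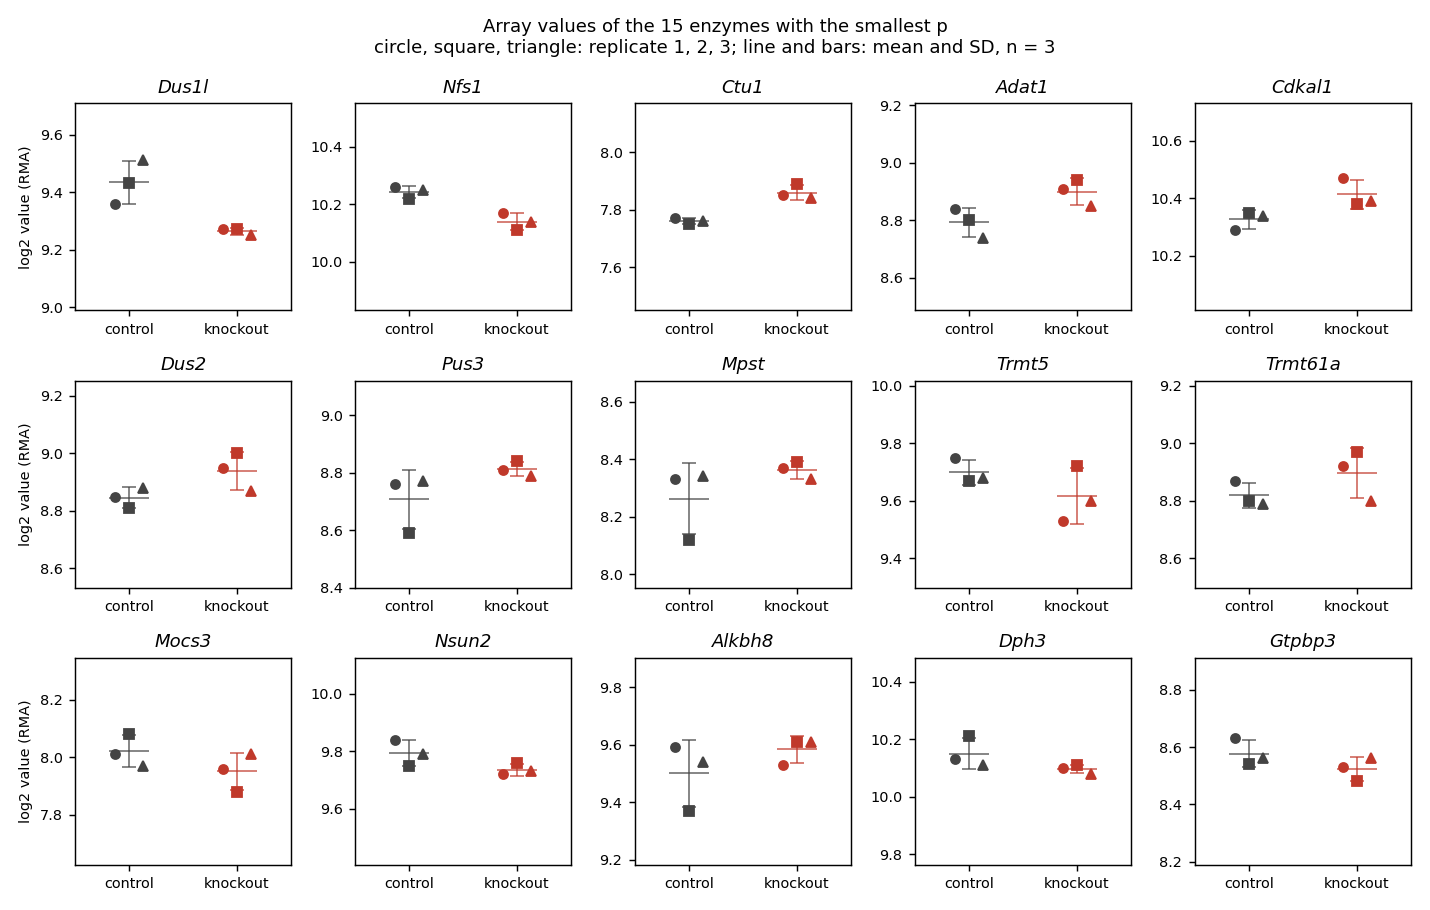
Log2 values on the 6 arrays for the 15 enzymes with the smallest p, all panels with the same height of axis. Symbols are replicates, lines and bars mean and SD of 3 arrays. Groups are separate in Dus1l, Nfs1, Ctu1, Adat1, Cdkal1 and Pus3 and overlap in the other 9.

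Several of these enzymes work in pairs, so the change of 1 partner relative to the other was taken array by array in 6 pairs, chosen after the values of the enzymes were seen. Ctu1 relative to Ctu2 was 0.14 higher in the knockout mean, with arrays at -0.05, 0.07 and -0.02 in control and 0.12, 0.14 and 0.15 in knockout relative to the control mean. Trmt61a against Trmt6 gave 0.13, with arrays at 0.07, -0.08 and 0.01 in control and 0.15, 0.12 and 0.11 in knockout. In both pairs the groups were separate, with an exact two-sided permutation p = 0.1, the smallest that 3 arrays against 3 allow, and 0.3 after Benjamini-Hochberg adjustment over the 6 pairs. The groups overlapped in the other 4: Alkbh8 against Trmt112 (0.12), Mto1 against Gtpbp3 (0.043), Qtrt1 against its partner Qtrt2 (-0.020) and Mettl1 against Wdr4 (0), with adjusted exact permutation p-values of 0.6 to 1. This test could not reach 0.05, and it settles nothing for pairs chosen after their values were seen. How often the groups are separate in pairs of other genes was not examined.

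Within each group, single arrays stood high or low across many of the enzymes. Knockout replicate 2 was strictly the highest of the 3 knockout arrays in 25 of 38 enzymes (65.8%), against 31.7% of all clusters, and knockout replicate 3 strictly the lowest in 24 (63.2%), against 34.1%. In the control group, replicate 1 was highest in 18 enzymes (47.4%, against 35.2% of all clusters) and replicate 2 lowest in 18 (47.4%, against 36.5%). The median enzyme lay 0.032 above the control mean on knockout replicate 2 and at -0.032 on knockout replicate 3, with -0.012 on knockout replicate 1. The distance between knockout replicates 2 and 3 was thus larger than the median difference of -0.027 between the groups. On the same arrays the pachytene markers averaged 9.12, 9.17 and 9.40 in knockout replicates 1 to 3 and 9.31, 9.83 and 9.77 in control replicates 1 to 3. The arrays on which the enzymes were most often lowest, control replicate 2 and knockout replicate 3, had the highest pachytene mean of their group. Knockout replicate 1, with the lowest pachytene mean, was highest in only 5 of 38 enzymes. Leydig cell markers averaged 9.92, 9.73 and 9.50 in control and 9.965, 9.995 and 10.20 in knockout replicates 1 to 3. Their mean was highest on knockout replicate 3, but the markers were split there. Of the knockout arrays it was highest for Star (10.79) and Cyp17a1 (11.40) and lowest for Cyp11a1 (10.07) and Hsd3b1 (8.53). The part of the markers in the high and low arrays of the enzymes was not tested.

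**Figure D3:**
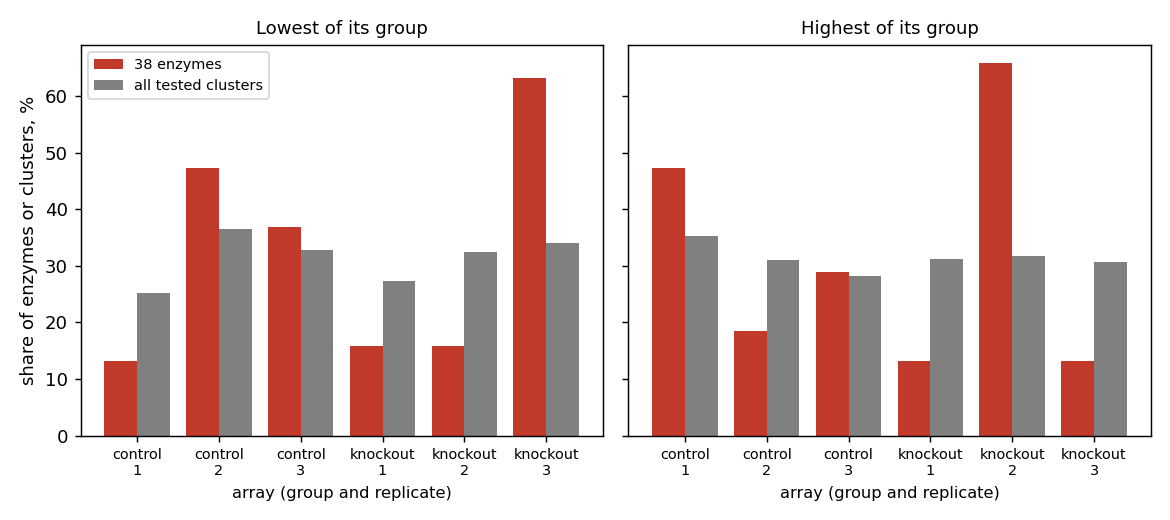
Share of the 38 enzymes (red) and of all tested clusters (grey) for which an array was strictly the lowest (left) or highest (right) of its group of 3. Knockout replicate 2 was highest in 65.8% and knockout replicate 3 lowest in 63.2% of the enzymes.

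Further genes of the pathway had differences of similar size. Of 39 further transfer RNA modification genes 37 were measured, 18 higher, 18 lower and 1 equal, with differences of -0.14 to 0.15, and 0 passed in either direction. At an unadjusted p under 0.05 there was 1 (2.70%), fewer than the 10.6% of all clusters. It was Mettl6, a cytosine methyltransferase of serine transfer RNA, which differed by -0.12 (SE 0.045, adjusted p = 0.430) with separate groups. Nat10, an acetyltransferase of cytidine, differed by -0.093 (SE 0.046, adjusted p = 0.524).

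Genes that cut, splice and trim transfer RNA precursors had differences of the same small size. Of 24 measured among 26 listed, 18 were lower, 5 higher and 1 equal in the knockout, their median was -0.028, and 0 passed in either direction. Of all clusters 46.96% were lower. With centred arrays the median of the list was -0.0083, and 15 of the 24 were lower, where 36.7% of all clusters were. At an unadjusted p under 0.05 there were 3 (12.5%, against 10.6% of all clusters), each lower, where 6.45% of all clusters were: Elac2, the nuclease that trims the tail end, at -0.16 (SE 0.043, adjusted p = 0.347), Rpp14 at -0.12 (SE 0.040, adjusted p = 0.382) and Pop5 at -0.10 (SE 0.040, adjusted p = 0.447), both subunits of RNase P or its relative RNase MRP. Pop5 was named after its values were seen. The difference between these genes and the modification enzymes was not tested.

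**Figure D4:**
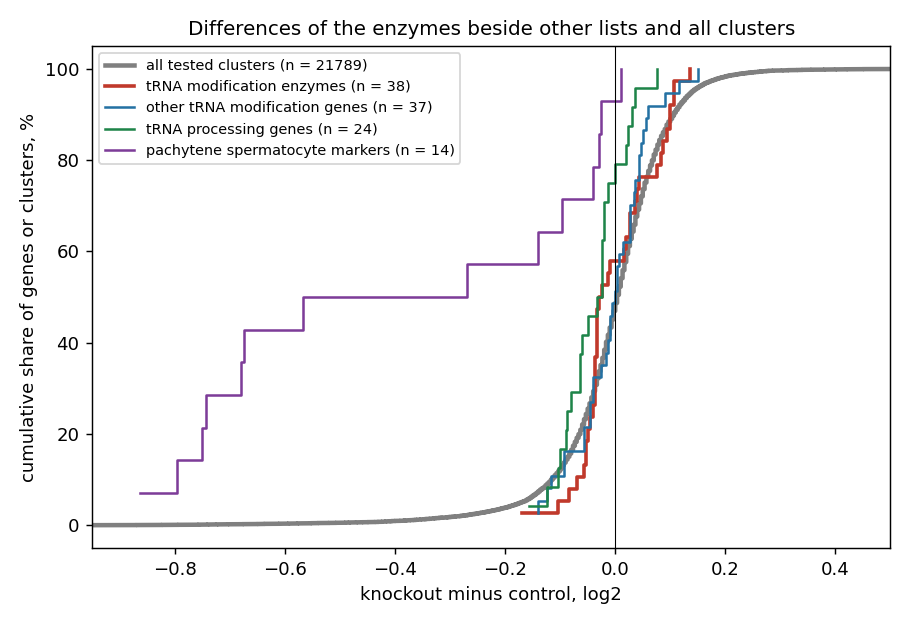
Cumulative share of genes or clusters by their log2 difference between knockout and control. The curve of the 38 enzymes spans -0.17 to 0.14 and runs close to that of all 21789 clusters, while the 14 pachytene markers spread to the left, with a median of -0.42.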

How the data were processed

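The authors summarised the probes with RMA in Affymetrix Expression Console, per the submitters' processing notes, and the deposited values are log2 intensities per transcript cluster. Not given in the sources used here are versions, probe annotation and genome build. RMA gives all arrays 1 distribution, so a change shared by all transcripts would not be seen. Of 35556 rows 21789 had 1 gene symbol in the platform annotation and were tested, 1621 had several and 12146 none. Groups came from the sample titles. Knockout was compared with control with limma 3.58.1 in R 4.3.3 (lmFit, eBayes, no covariates). The procedure was tested on simulated data with planted changes larger than any difference among the enzymes. Its power for changes as small as theirs was not tested. The row with the highest mean over the 6 arrays stood for a gene with several rows (3 enzymes). Values on all arrays are given for the 15 enzymes with the smallest p, and for others where a sentence turns on them. The enzymes and lists were chosen with earlier results of these data known. Scan dates were not used here, so no batch was corrected for. The targeted gene is not reported here. The number of arrays limits the precision. Alternatives were a replicate block, centring, a filter on dim clusters, all rows, another variance prior, another row per gene, other thresholds and leaving out each array.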

Additional observations from a re-analysis of the deposited data

How the results depend on the processing

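No enzyme passed the threshold under any alternative with adjusted p-values, the lowest being 0.205 for Dus1l without control replicate 1, nor at an adjusted p under 0.1. At an unadjusted p under 0.05 in limma there were 1 higher and 2 lower in the main fit, where 10.6% of all clusters stood out. With centred arrays there were 3 higher and 1 lower, and with dim clusters left out 2 higher and 2 lower. An intensity trend and robust prior gave 0 higher and 2 lower. Leaving out 1 array gave 0 to 2 higher and 1 or 2 lower. The share of all clusters in these alternatives was not taken, so the counts are no result about the set. The labels do not say whether the replicate numbers pair the arrays, and the main fit did not pair them. Deviations of same-numbered arrays correlated at 0.17, -0.054 and 0.17, and 4 of 6 arrays correlated best with their own number. These values do not settle whether the numbers mark pairs. With the replicate number as a block 1 enzyme, lower, had an unadjusted p under 0.05 in place of 3, and over all clusters 0 passed in place of 3. Over all clusters 0 passed with all rows tested, 7 with an intensity trend and robust prior, and 0 to 52 when 1 array was left out, 52 without control replicate 1. The enzymes' median was -0.0067 with centred arrays, which moved all clusters by the same amount, and between -0.027 and -0.0017 without 1 array. Of the 38 enzymes 27 kept their sign in the 8 alternatives that can change a difference, and Thg1l was at 0 without knockout replicate 3. With centred arrays Pus1 was at 0.0067 and Mto1 at 0.010, and with the dimmest row Trmt112 was at 0.047 and Pus7 at 0.037. Leaving out 1 array gave ranges of -0.032 to 0.093 for Mettl1, -0.030 to 0.010 for Pus1, -0.062 to 0.0083 for Qtrt1, -0.015 to 0.085 for Trdmt1, -0.087 to 0.0083 for Trit1, -0.083 to 0.082 for Urm1 and -0.022 to 0.078 for Wdr4. The causes were not tested. Detection calls were not used here, so signal over background is unknown.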
